A study of Drosophila melanogaster with 16 samples.

Results

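The GstD cluster of Drosophila melanogaster is a row of neighbouring genes for Delta class glutathione S-transferases, described here in tumours of the eye-antennal imaginal disc. Its members were taken by their FlyBase identifiers, 10 genes from GstD1 to GstD10, a rule that uses no measured value, although the cluster was proposed with earlier results of these data known. Of these 10, 9 had a row among the 11196 features of the array table. GstD10 (FBgn0042206) had none and is not analysed here.

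Tumours of 4 genotypes were set against wild-type discs on custom arrays with a pair of dyes. They arose from mutant clones in the larval disc and carried activated Ras with loss of cdc42 (RasV12cdc42-), activated Ras with loss of baz (RasV12baz-), a gain-of-function Raf with loss of scrib (RafGOFscrib-), or activated Ras with loss of scrib (RasV12scrib-). All 4 thus share an oncogene of the Ras-Raf pathway and the loss of a gene that acts in epithelial polarity. Tumours were dissected at day 10 and wild-type discs at day 5 to 6, all from larvae raised at 25 °C, so tumour and age differ together and cannot be told apart against wild-type. Each RNA came from about 30 to 40 discs, so each value is a pool of larvae, and unmutated cells of the disc may be part of it. The labels do not give the drivers of the transgenes or the alleles. In such bulk RNA a change in the number of cells that express a gene and a change in RNA per cell cannot be told apart.

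Each genotype had 4 arrays, and each array gave a log2 ratio per feature, in which 1 unit is a 2-fold difference. Ratios above 0 are taken to mean more RNA in the tumour than in wild-type. No source used here states the direction, which is likely only because the labels make the tumour channel 1 of every array. With the opposite direction each rise below would be a fall of the same size. In RafGOFscrib- replicates 1 and 2, 95.07% of features had identical values, whereas no further pair of arrays exceeded 0.143%. They were averaged and counted as 1 replicate, which left n = 3 for RafGOFscrib- and n = 4 for the other genotypes, 15 replicates in all. Precision is limited by this small number of arrays, which are biological replicates by their labels. With replicates 1-2 and 3-4 of a genotype as blocks, replicates within a block correlated at 0.57, a consensus over all features. The fit used below treats the 15 replicates as independent, so its errors may be too small.

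Glutathione S-transferases join the tripeptide glutathione to electrophilic compounds, among them products of lipid peroxidation and insecticides, which makes these compounds more soluble and less reactive. In flies, GstD1 is a widely used readout of oxidative stress: reporters built from its upstream DNA respond to the transcription factor CncC, the fly counterpart of Nrf2, whose inhibitor Keap1 releases it under oxidants. In the Release 6 gene table of NCBI the genes lie on chromosome arm 3R in the order GstD10, GstD9, GstD1, GstD2, GstD3, GstD4, GstD5, GstD6, GstD7 and GstD8. The only other gene listed between the ends of this row is a long noncoding RNA gene between GstD1 and GstD2. Delta class genes are similar in sequence, and the part that cross-hybridisation between them has in the values below was not tested.

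GstD3 (FBgn0010039) had the largest changes of the cluster. Its product is a short Delta class protein that lacks the N-terminal stretch of its relatives. Its log2 ratios were 3.54, 3.83, 4.40 and 3.98 in RasV12cdc42- replicates 1 to 4. RasV12baz- tumours gave 5.64, 5.03, 1.93 and 4.93. The ratio was well above 0 in both genotypes, and RasV12baz- replicate 3 lay far below the other 3 replicates of its genotype. RafGOFscrib- tumours gave 0.78, 1.38 and 1.13, and RasV12scrib- tumours gave 2.45, 2.78, 2.52 and 2.42. All 15 replicates were above 0, and the RafGOFscrib- values lay below those of every other genotype.

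**Figure D1:**
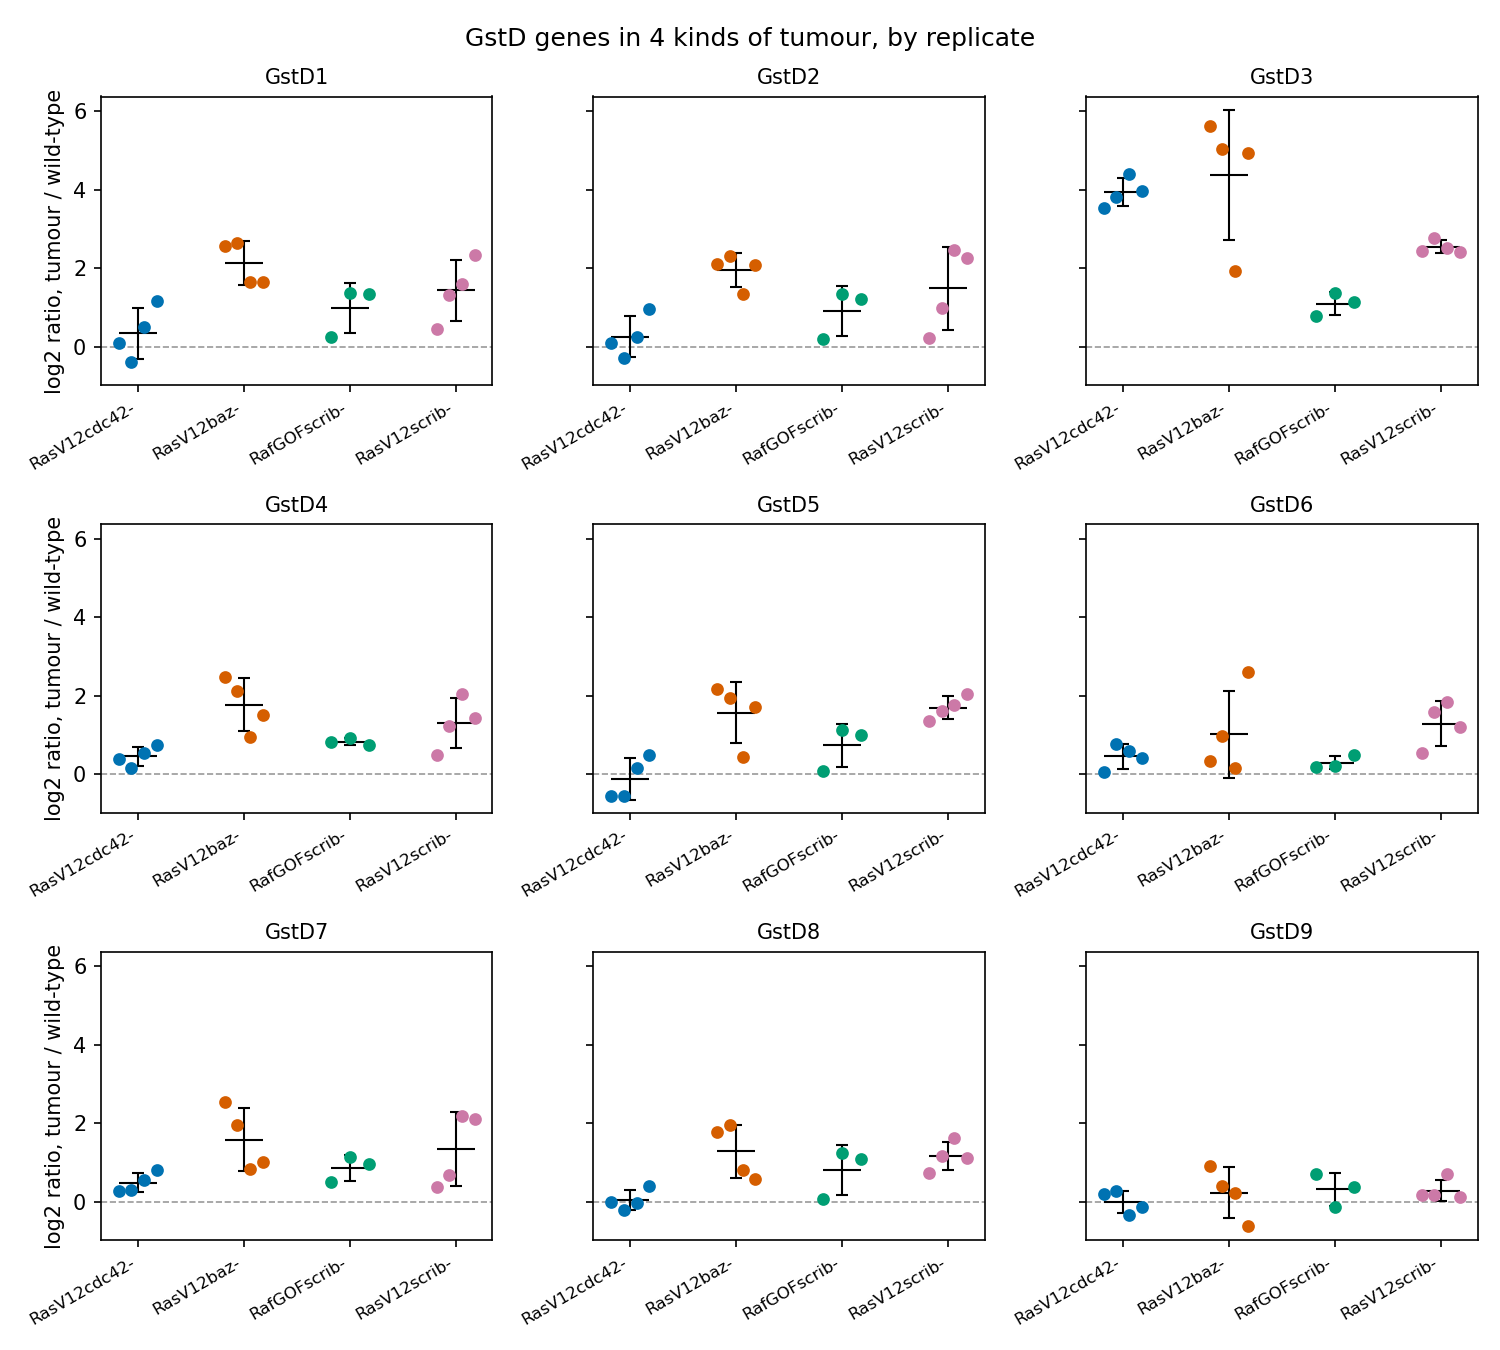
Log2 ratio of tumour over wild-type (y axis) for each GstD gene with a feature, by genotype (x axis). Points are replicates (RafGOFscrib- replicates 1 and 2 as their mean), horizontal bars are means, whiskers are SD, and the dashed line at 0 stands for the wild-type level. GstD3 lies between 3.54 and 4.40 in RasV12cdc42- and between 0.78 and 1.38 in RafGOFscrib-. GstD9 lies between -0.63 and 0.92 over all genotypes.

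Against wild-type, GstD3 rose in RasV12cdc42- by 3.94 ± 0.37 on the log2 scale (SE, 15.3-fold, adjusted p = 8.435e-07, limma), in RasV12baz- by 4.23 ± 0.45 (18.7-fold, adjusted p = 5.759e-06) and in RasV12scrib- by 2.54 ± 0.37 (5.83-fold, adjusted p = 3.884e-05). Each adjusted p comes from a linear model over all 11196 features with a dye term, adjusted by the Benjamini-Hochberg method, and a gene is said to rise or fall where it is under 0.05. Among all features the fitted change of GstD3 ranked 6 in RasV12cdc42-, 3 in RasV12baz- and 46 in RasV12scrib-, counted from the highest. In RafGOFscrib- the fitted change was 0.94 ± 0.49 and did not pass (95% CI -0.09 to 1.97, adjusted p = 0.3214). Without RasV12baz- replicate 3 the RasV12baz- value was 5.04 ± 0.24 and RafGOFscrib- passed at the same 0.94, now with an SE of 0.24 (adjusted p = 0.02807), since all genotypes share 1 estimate of the spread.

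GstD1 (FBgn0001149), the stress readout of the cluster, rose in RasV12baz- and RasV12scrib-. Its log2 ratios were 0.08, -0.40, 0.49 and 1.16 in RasV12cdc42-, 2.58, 2.65, 1.64 and 1.64 in RasV12baz-, 0.24, 1.36 and 1.33 in RafGOFscrib-, and 0.45, 1.32, 1.61 and 2.35 in RasV12scrib-. RasV12baz- tumours were all above RasV12cdc42- and RafGOFscrib- tumours, and RasV12scrib- tumours spread across the ranges of the others. The fitted rise was 1.68 ± 0.31 in RasV12baz- (3.20-fold, adjusted p = 0.001979) and 1.43 ± 0.25 in RasV12scrib- (2.70-fold, adjusted p = 0.0002868). Neither call was lost in any of the 24 other settings that were tried. GstD1 did not pass in RasV12cdc42- (0.33 ± 0.25, 95% CI -0.19 to 0.86, adjusted p = 0.5185) or in RafGOFscrib- (0.53 ± 0.34, 95% CI -0.17 to 1.24, adjusted p = 0.4134). With array weights it passed in both, and with only the arrays that carry tumour RNA in Cy3 it passed in RafGOFscrib-. The dye term had its lowest p for GstD1 among these genes (unadjusted p = 0.02033, limma). RasV12baz- and RafGOFscrib- had no dye-swapped array, so their dye correction comes from the other genotypes. It lowered their GstD1 values, which were 2.13 ± 0.56 (SD, n = 4) and 0.98 ± 0.64 (SD, n = 3) as plain means.

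GstD5 (FBgn0010041) was the member that passed between RasV12cdc42- and RasV12scrib-. Its log2 ratios were -0.57, -0.57, 0.16 and 0.49 in RasV12cdc42-, 2.17, 1.95, 0.44 and 1.70 in RasV12baz-, 0.09, 1.11 and 0.99 in RafGOFscrib-, and 1.36, 1.61, 1.77 and 2.04 in RasV12scrib-. The lowest RasV12scrib- tumour was above every RasV12cdc42- and RafGOFscrib- tumour. GstD5 rose against wild-type in RasV12scrib- by 1.70 ± 0.24 (3.24-fold, adjusted p = 2.987e-05) and in RasV12baz- by 1.28 ± 0.29 (2.42-fold, adjusted p = 0.01308). The RasV12baz- call was lost without replicate 1 or replicate 2 of that genotype and with replicates 1-2 and 3-4 as random blocks, with an adjusted p of up to 0.08689. In RasV12cdc42- the fitted value was -0.12 ± 0.24 (95% CI -0.62 to 0.38).

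GstD2 (FBgn0010038) and GstD4 (FBgn0010040), the neighbours of GstD3 on either side, did not pass in RasV12cdc42-. GstD2 averaged 0.25 ± 0.52 (log2 ratio, SD, n = 4) in RasV12cdc42-, 1.96 ± 0.43 in RasV12baz-, 0.91 ± 0.63 (n = 3) in RafGOFscrib- and 1.48 ± 1.07 in RasV12scrib-. GstD4 averaged 0.45 ± 0.25 in RasV12cdc42-, 1.77 ± 0.68 in RasV12baz-, 0.83 ± 0.09 in RafGOFscrib- and 1.29 ± 0.64 in RasV12scrib-. Both genes rose in RasV12baz- and RasV12scrib-, with adjusted p-values (limma) from 0.0003987 to 0.007017, and neither passed in the other genotypes. Every RasV12baz- tumour was above every RasV12cdc42- tumour for both. On each RasV12cdc42- array GstD3 exceeded the highest of the other members by 3.15, 3.06, 3.80 and 2.82 log2 units in replicates 1 to 4. The same gap was 3.06, 2.38, 0.29 and 2.32 in RasV12baz-. It was at most 0.01 in RafGOFscrib-, and 1.09, 1.17, 0.06 and 0.07 in RasV12scrib-, where replicates 3 and 4 held GstD2 or GstD1 at nearly the height of GstD3.

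**Figure D2:**
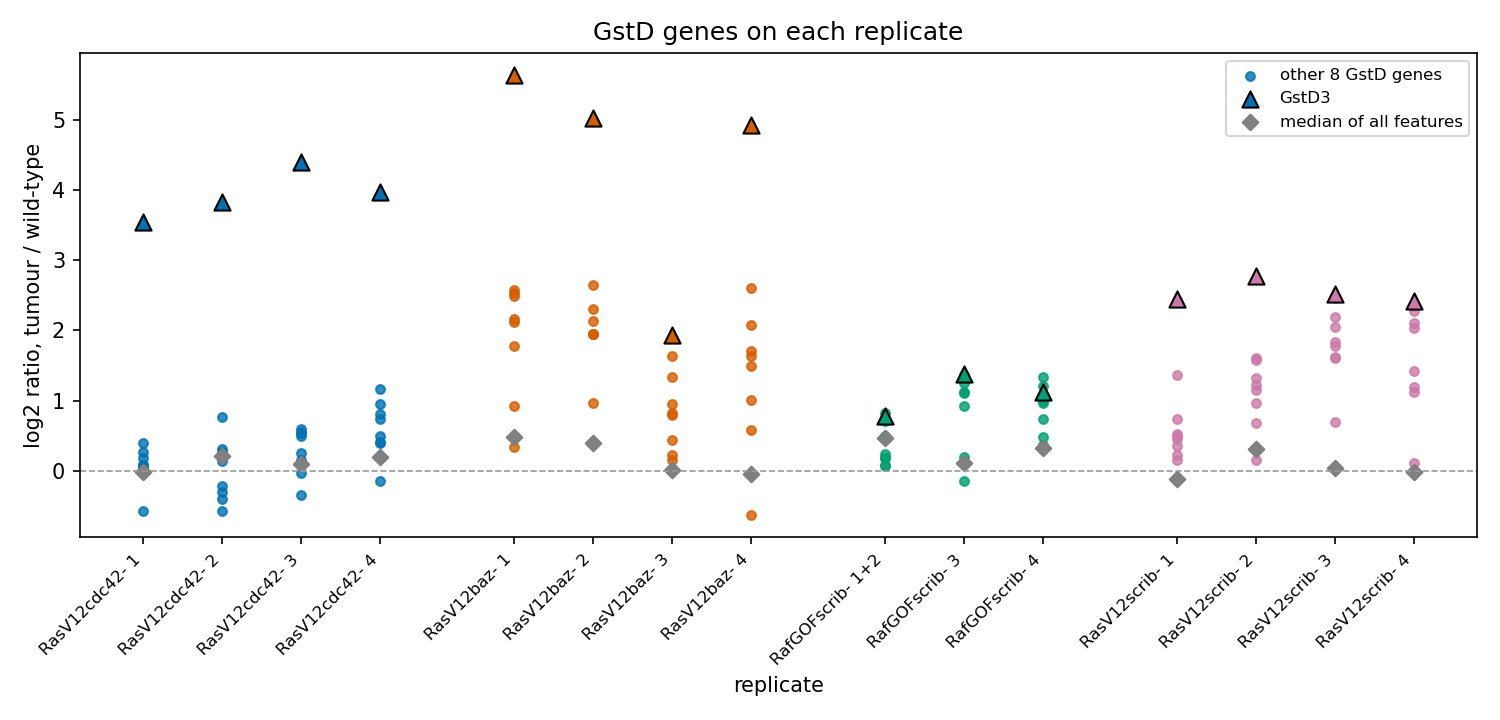
Log2 ratio of tumour over wild-type (y axis) on each of the 15 replicates (x axis), with GstD3 as triangles, the other 8 GstD genes as circles and the median of all features as grey diamonds. GstD3 stands 2.82 to 3.80 log2 units above every other member in RasV12cdc42- and at most 0.01 above the highest of them in RafGOFscrib-.

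GstD7 (FBgn0010043) and GstD8 (FBgn0010044), at the far end of the row, had their genotype means in the same order as GstD1. GstD7 averaged 0.49 ± 0.25 in RasV12cdc42-, 1.58 ± 0.81 in RasV12baz-, 0.86 ± 0.33 in RafGOFscrib- and 1.34 ± 0.95 in RasV12scrib-. GstD8 averaged 0.04 ± 0.26 in RasV12cdc42-, 1.28 ± 0.69 in RasV12baz-, 0.80 ± 0.64 in RafGOFscrib- and 1.16 ± 0.36 in RasV12scrib-. Both rose in RasV12scrib- (fitted 1.34 and 1.16, adjusted p = 0.001954 and 0.00122) and in RasV12baz- (fitted 1.45 and 1.21, adjusted p = 0.02042 and 0.01758). The RasV12baz- calls of both were lost without replicate 1 or replicate 2 of that genotype and with the replicate number as a block (adjusted p up to 0.1297 for GstD7 and 0.1331 for GstD8), and that of GstD8 also with the random blocks.

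GstD6 (FBgn0010042) rose in RasV12scrib- by 1.29 ± 0.29 (2.44-fold, adjusted p = 0.002893), a call lost with the random blocks (adjusted p = 0.1218). In RasV12baz- its log2 ratios were 0.33, 0.97, 0.15 and 2.60. Replicate 4 carried most of that mean, and the fitted 0.94 ± 0.36 did not pass (adjusted p = 0.1617), although it did without the dye term. It averaged 0.45 ± 0.31 in RasV12cdc42- and 0.29 ± 0.16 in RafGOFscrib-.

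GstD9 (FBgn0038020), next to GstD10 at the other end of the row, passed in no genotype. Its log2 ratios were 0.18, 0.27, -0.35 and -0.14 in RasV12cdc42-, 0.92, 0.41, 0.22 and -0.63 in RasV12baz-, 0.71, -0.14 and 0.36 in RafGOFscrib-, and 0.16, 0.16, 0.70 and 0.11 in RasV12scrib-. The genotypes overlapped throughout. Its fitted changes lay between -0.01 and 0.50, and the highest upper bound of their 95% intervals was 1.09, in RafGOFscrib-.

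**Figure D3:**
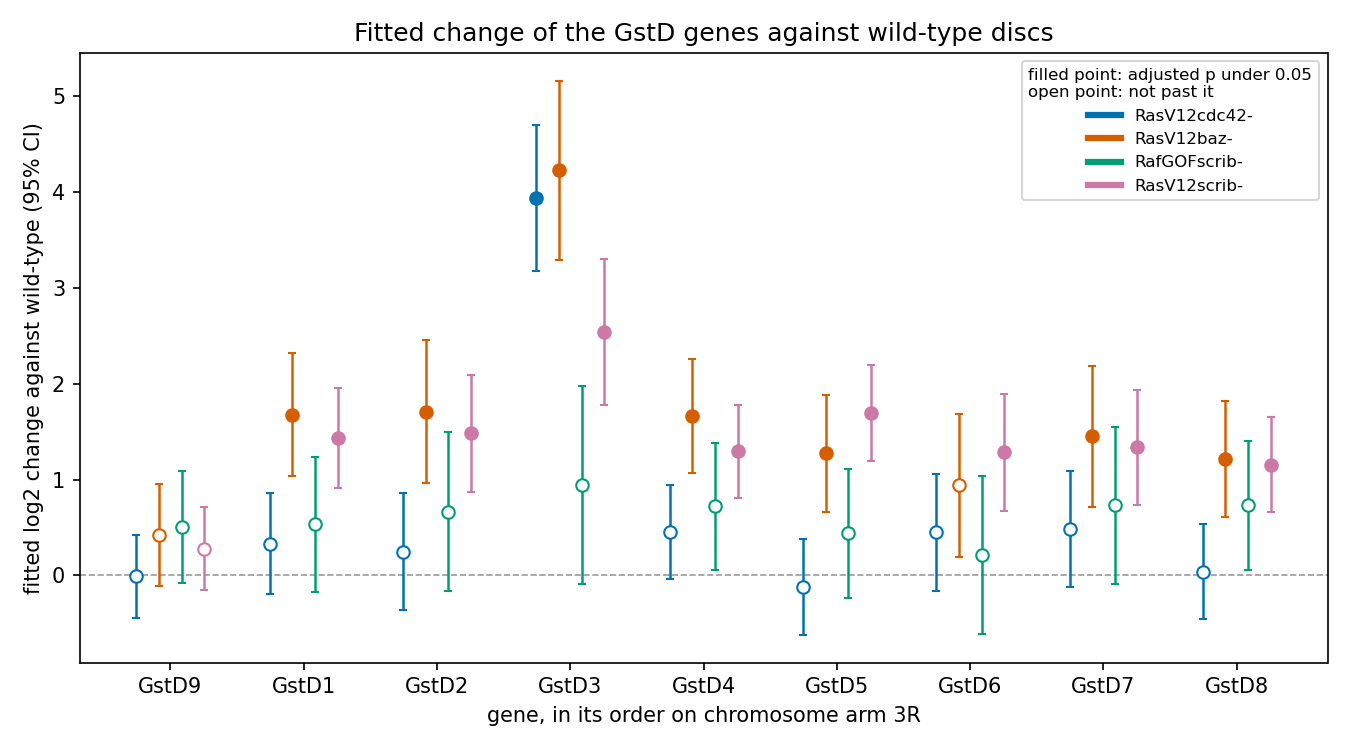
Fitted log2 change against wild-type (y axis) with its 95% confidence interval for each member, in gene order on 3R (x axis), for the 4 genotypes. Filled points passed an adjusted p of 0.05. GstD3 has filled points for RasV12cdc42-, RasV12baz- and RasV12scrib- at 3.94, 4.23 and 2.54, and every RafGOFscrib- point is open.

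Counted by genotype, 1 of the 9 members rose in RasV12cdc42-, 7 in RasV12baz-, 0 in RafGOFscrib- and 8 in RasV12scrib-, and none fell. In RasV12cdc42- the member that rose was GstD3. Of all features there, 8.14% passed, with 5.72% higher and 2.42% lower (640 and 271 features, or 501 and 496 with each array centred on its median). In RasV12baz- the members other than GstD6 and GstD9 rose, where 4.75% of all features passed, 3.65% higher and 1.10% lower (409 and 123 features, or 337 and 185 with centring). Without RasV12baz- replicate 1, and likewise without replicate 2, 4 members rose there, namely GstD1, GstD2, GstD3 and GstD4. Of all features, 2.31% passed without replicate 1 and 2.15% without replicate 2.

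In RafGOFscrib- no member passed by limma, where 4.74% of features passed, 3.65% higher and 1.09% lower (409 and 122 features, or 227 and 237 with centring). There 2 members, GstD4 and GstD8, had an unadjusted p under 0.05. The share of all features under that unadjusted cut was not counted, here or in the comparisons below. In RasV12scrib- the members other than GstD9 rose. There 22.1% of all features passed, 10.4% higher and 11.7% lower (1160 and 1309 features, or 1689 and 569 with quantile normalization). Leaving out any 1 replicate kept the RasV12scrib- count at 8, and centring changed none of these 4 counts.

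The median fitted change over the 9 members was 0.33 in RasV12cdc42-, 1.45 in RasV12baz-, 0.66 in RafGOFscrib- and 1.34 in RasV12scrib-. Over all features the median was 0.14 in RasV12cdc42-, 0.15 in RasV12baz-, 0.24 in RafGOFscrib- and 0.05 in RasV12scrib-. Centring brought these all-feature medians to at most 0.0166. The 4 comparisons may share a wild-type RNA, so their values stand side by side and are not independent. Ratios were above 0 on every replicate for 4 of the 9 members in RasV12cdc42- (23.8% of all features), for 8 in RasV12baz- (24.3%), for 8 in RafGOFscrib- (50.6%) and for 9 in RasV12scrib- (18.9%).

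Replicates of a genotype differed in the median height of the 9 members, which single members did not all follow. The array median of the 9 members ranged from 0.08 to 0.73 in RasV12cdc42-, from 0.83 to 2.17 in RasV12baz-, from 0.24 to 1.12 in RafGOFscrib- and from 0.49 to 2.04 in RasV12scrib-. In RasV12scrib- it was 0.49 and 1.22 on replicates 1 and 2 and 1.84 and 2.04 on replicates 3 and 4. There GstD3 (2.45, 2.78, 2.52 and 2.42) and GstD9 (0.16, 0.16, 0.70 and 0.11) did not rise along with it. The dye-swapped arrays of RasV12scrib- were replicates 1 and 3, and the part that dye has in these medians was not tested. In RasV12cdc42- replicates 1 and 2 (0.08 and 0.14) were lower than 3 and 4 (0.49 and 0.73), and there the swapped arrays are replicates 1 and 2, so dye and replicate pair cannot be told apart. The merged RafGOFscrib- pair had a member median of 0.24, below the 0.47 of all features on the same arrays, and 4 of the 9 members were above the array's own median. On RafGOFscrib- replicates 3 and 4 the members' median was 1.12 and 0.99, and 8 and 9 members were above the array's median.

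Comparisons between tumour genotypes asked whether the oncogene or the lost polarity gene went with a different level of these genes. An F-test over the 4 genotypes passed for 2 of the 9 members, GstD3 (adjusted p = 0.003816) and GstD5 (adjusted p = 0.009253), where 3.97% of all features passed. GstD1 had an adjusted p of 0.06809, and the other members had values from 0.1215 to 0.8674. Without RasV12scrib- replicate 1 the count was 4, with GstD1 (0.04683) and GstD2 (0.03352) in addition. GstD1 also passed without RasV12scrib- replicate 2 (0.04987), without RasV12baz- replicate 4 (0.04332) and without the dye term (0.04177). It passed as well with RafGOFscrib- replicates 1 and 2 kept apart (0.03049) and with array weights (0.0004035). In the remaining settings GstD1 did not pass, with an adjusted p of up to 0.3865. With replicates 1-2 and 3-4 as random blocks the count was 0 (adjusted p = 0.1908 for GstD3 and 0.2196 for GstD5). No share of all features is given for the F-test outside the main fit, so its counts there have nothing beside them.

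RasV12cdc42- and RasV12baz- both carry RasV12 and differ in the polarity gene. No member passed between them by limma, where 0.0357% of features passed. At the looser unadjusted cut of 0.05, 6 members were under it, with no share of all features to set beside them. All 9 fitted differences were below 0, from -1.46 for GstD2 to -0.29 for GstD3, and the groups did not overlap for GstD1, GstD2, GstD4, GstD7 and GstD8, against 4.35% of all features without overlap. Overlap, here and in the comparisons below, was read from ratios without the dye term, and RasV12baz- had no dye-swapped array. The 95% interval of the difference was -2.17 to -0.52 for GstD1, and GstD3 differed by -0.29 ± 0.58 (SE), with an upper bound of 0.92. Without RasV12baz- replicate 3, GstD5 passed (-1.77 ± 0.32, adjusted p = 0.02707).

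RasV12cdc42- and RasV12scrib- also share RasV12. GstD5 was lower in RasV12cdc42- by a log2 difference of -1.82 ± 0.34 (3.53-fold, adjusted p = 0.003132), with means of -0.12 ± 0.53 in RasV12cdc42- and 1.70 ± 0.29 in RasV12scrib- (SD, n = 4 each). It was the 1 member of 9 that passed, where 3.51% of all features passed and 0.866% were lower (296 features higher and 97 lower, or 169 and 102 with quantile normalization). The call was lost with the random blocks and when only the arrays that were not dye-swapped were used, with an adjusted p of up to 0.2076. GstD8 did not pass (-1.12 ± 0.33, adjusted p = 0.07675), though its groups did not overlap. GstD3 ran the other way, with a fitted difference of 1.39 ± 0.52 and groups that did not overlap, and did not pass either (adjusted p = 0.1873). It passed without RasV12baz- replicate 3 (1.39 ± 0.25, adjusted p = 0.002566), and GstD2 passed without RasV12scrib- replicate 1. Groups did not overlap for 3 of the 9 members, against 8.80% of all features.

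RasV12baz- and RasV12scrib- did not differ past the threshold in any member by limma, where 3.02% of features did. At the unadjusted cut of 0.05, not counted for all features, 1 member, GstD3, was under it. The GstD3 difference was 1.68 ± 0.58 (95% CI 0.48 to 2.89, adjusted p = 0.1337), and without RasV12baz- replicate 3 it was 2.50 ± 0.30 (adjusted p = 0.0001629). For GstD1 the difference was 0.25 with a 95% interval from -0.58 to 1.07. All 9 members had overlapping groups, whereas 10.2% of all features had none.

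RafGOFscrib- and RasV12scrib- both lack scrib and carry different oncogenes. No member passed by limma, where 1.18% of features did. At the unadjusted cut of 0.05, not counted for all features, 4 members were under it. All fitted differences except that of GstD9 were below 0, the lowest being -1.60 ± 0.61 for GstD3 (adjusted p = 0.2233) and -1.26 ± 0.40 for GstD5 (adjusted p = 0.1342). These 2 genes and GstD6 had groups that did not overlap, against 15.3% of all features. Without RasV12baz- replicate 3 the same GstD3 difference passed (adjusted p = 0.008768), and GstD5 passed when RafGOFscrib- replicates 1 and 2 were kept apart.

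GstD3 also differed between RafGOFscrib- and each of RasV12cdc42- and RasV12baz-, in comparisons where oncogene and polarity gene both differ. It was higher in RasV12cdc42- by 3.00 ± 0.61 (7.98-fold, adjusted p = 0.02501) and in RasV12baz- by 3.29 ± 0.56 (9.76-fold, adjusted p = 0.005405) than in RafGOFscrib-. Means were 3.94 ± 0.36 in RasV12cdc42- and 4.38 ± 1.66 in RasV12baz- (SD, n = 4 each), against 1.10 ± 0.30 in RafGOFscrib- (SD, n = 3). It was the 1 member that passed in either comparison, with overlap between groups absent for GstD3 and GstD4 in the first and for GstD1, GstD3 and GstD4 in the second. In the RasV12cdc42- comparison 0.598% of all features passed, 0.313% higher in RasV12cdc42- (35 higher and 32 lower, or 50 and 30 with centring), and 12.8% did not overlap. In the RasV12baz- comparison 0.464% passed, 0.232% higher in RasV12baz- (26 higher and 26 lower, or 201 and 149 with quantile normalization, and 76 and 22 without RasV12baz- replicate 3), and 8.15% did not overlap. The first call was lost in 10 of 24 other settings and the second in 3, among them the fit without RafGOFscrib- replicate 1, the merged pair.

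Ordered by their plain means, 6 of the 9 members were highest in RasV12baz- (GstD1, GstD2, GstD3, GstD4, GstD7 and GstD8), 2 in RasV12scrib- (GstD5 and GstD6) and GstD9 in RafGOFscrib-. These means carry no dye term, and RasV12baz- and RafGOFscrib- had no dye-swapped array. RasV12cdc42- was the lowest genotype for 7 members and RafGOFscrib- for GstD3 and GstD6. For GstD1, GstD2, GstD4, GstD7 and GstD8 the whole order was RasV12baz-, RasV12scrib-, RafGOFscrib-, RasV12cdc42-. For GstD3 it was RasV12baz-, RasV12cdc42-, RasV12scrib-, RafGOFscrib-. Fitted changes, which include the dye term, gave the same order for every member but GstD9. No pair of neighbours in any of the 9 orders differed past the threshold.

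Across the 15 replicates 6 of the members varied together more closely than the rest, a grouping read from these values and not tested. GstD1, GstD2, GstD4, GstD5, GstD7 and GstD8 correlated with one another at r from 0.79 to 0.93 (15 pairs). GstD6 correlated with these 6 at a median r of 0.36. GstD3 correlated with the members other than GstD9 at a median of 0.26 (0.10 to 0.39), although it lies between GstD2 and GstD4, which correlated at 0.89. Pairs with GstD9 had a median of 0.15. After each genotype's mean was taken out, the 7 pairs of GstD3 with members other than GstD9 had a median r of 0.45, with 0.80 for GstD5 and 0.63 for GstD4, and the 21 pairs without GstD3 and GstD9 had 0.70. These replicates share arrays, a scale and perhaps a reference RNA, so the coefficients are descriptions.

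**Figure D4:**
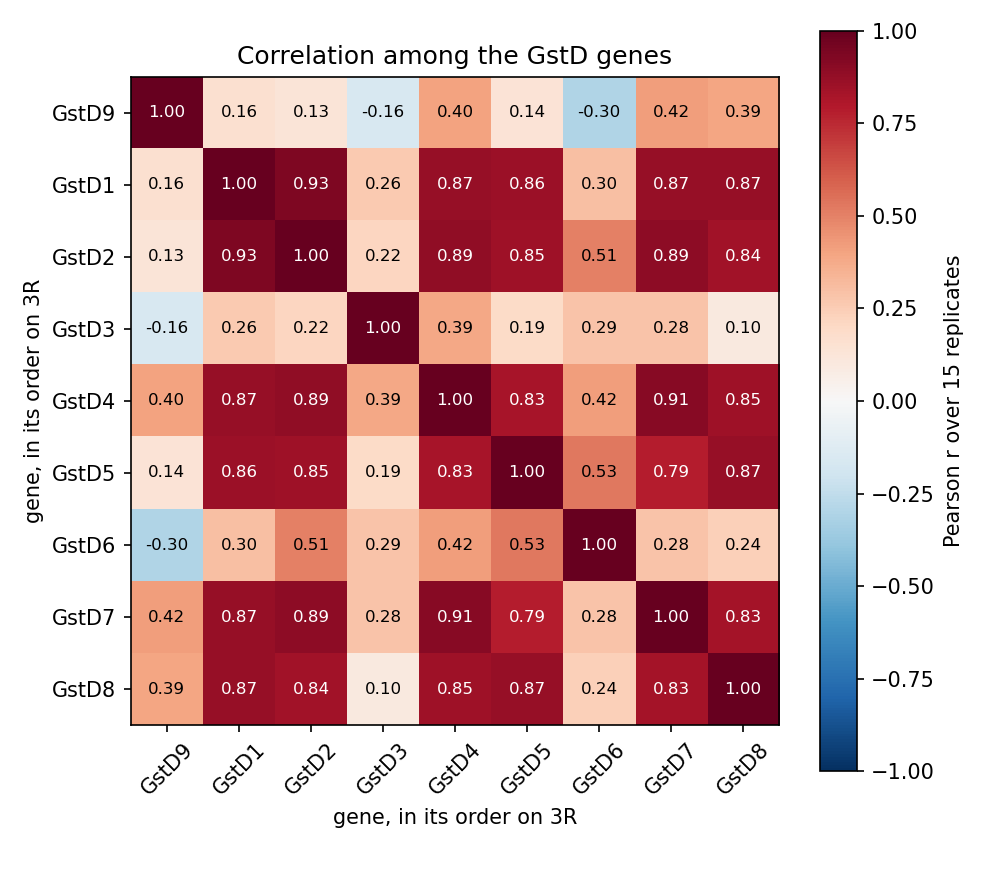
Pearson r between members over 15 replicates, with genes in their order on 3R on both axes and colour from blue (-1) to red (1). GstD1, GstD2, GstD4, GstD5, GstD7 and GstD8 form pairs between 0.79 and 0.93, while the rows of GstD3 and GstD9 reach at most 0.39 and 0.42.

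The features most like the mean of the 9 members over the 15 replicates were FBgn0034342 (r = 0.94) and FBgn0031380 (r = 0.94), which the gene table used here does not name. The next 3 (r from 0.92 to 0.93) were not named by it either. The lists of related genes met the same limit. Of 72 genes in 6 lists (CncC-Keap1 regulators, glutathione synthesis, other glutathione transferases, peroxide and superoxide removal, detoxification, JNK readouts), 0 could be matched by name to a feature, so no level is given for them. The engineered genes could not be checked by name either.

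Of 42 markers of disc and of other tissues, 1 was matched, so the labelled tissue could not be checked. It was Lsp2, a larval serum protein gene of the fat body. Its fitted log2 change passed only in RasV12scrib-, at -3.92 ± 0.64 (SE, adjusted p = 0.0001433, limma). It was -1.69 ± 0.64 in RasV12cdc42- (adjusted p = 0.1226), 0.07 ± 0.78 in RasV12baz- (0.9767) and -0.73 ± 0.86 in RafGOFscrib- (0.6616). In RasV12baz- its ratios spanned -3.22 to 2.60, with replicate 1 highest and replicate 4 lowest, while GstD1 was 2.58 and 1.64 on these arrays. In RafGOFscrib- it was -3.05 in the merged pair, which also had the lowest member median of that genotype, and 0.08 and 0.40 in replicates 3 and 4. Lsp2 was below 0 on all 4 arrays both in RasV12cdc42- (-0.46, -1.49, -2.31 and -2.49), where 1 member rose, and in RasV12scrib- (-4.40, -4.44, -4.36 and -2.49), where 8 rose. The part that admixed tissue has in the GstD values was not tested, and the ratios of this 1 marker cannot settle it.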

How the data were processed

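RNA was isolated in TRIzol, and random hexamers primed its amplification and labelling, per the labels' protocols. Tumour RNA carried Cy3 and wild-type RNA Cy5, or the reverse on RasV12scrib- replicates 1 and 3 and RasV12cdc42- replicates 1 and 2. The deposited values, from the authors, are log2 ratios in a single table of 16 array columns with no missing value. Scanning, background correction and normalization are not given in the sources used here, and no signal levels were used. The log base was inferred: of 409 repeated values, 36.7% equalled the log2 of a ratio of small whole numbers, and 0.0% a natural or decimal logarithm of one. No sign was changed, since arrays of opposite dye correlated above 0.

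Computation used R 4.3.3 with limma 3.58.1, and Python 3.11.15 with matplotlib 3.10.9. Over 15 replicates of all 11196 features, the model held each genotype's mean plus a term for dye, p-values being two-sided and adjusted over all features within a comparison. It was run on simulated data with changes of known size. Replicates were drawn as independent there, so that run cannot check the correlation within blocks. A genotype's mean against 0 is its comparison with wild-type. If the arrays share a wild-type RNA, that leaves out the spread of wild-type RNA. Names of the members come with their identifiers. Other genes were named from the fixed lists, and the 5 features most like the members' mean by Pearson r were sought. The gene table gave 1 symbol to 71 features. The choice of this cluster by its identifiers, the lists and the settings were made with earlier results of these data known. Same-numbered replicates deviated together in RasV12cdc42- and RasV12scrib- (r from 0.21 to 0.28, 4 pairs) and in RafGOFscrib- and RasV12scrib- (0.13 to 0.28, 3 pairs). This pairing is read from the data alone.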

Additional observations from a re-analysis of the deposited data

Results flagged for a closer look

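GstD9 on RasV12scrib- replicate 3, at a log2 ratio of 0.70, lay far from the other 3 replicates of its genotype, which were between 0.11 and 0.16. Its gap to the nearest of them was 92.8% of the set's range, and it was the 1 set of 27 past Dixon's critical value for 4 replicates, where chance, at about 1 in 20, gives 1.35. GstD3 in RasV12baz-, whose replicate 3 (1.93) lay below the others, came next at 80.8% and did not pass. GstD3 differed between genotypes, with fitted log2 differences of 3.29 for RasV12baz- against RafGOFscrib- and 3.00 for RasV12cdc42- against RafGOFscrib-. GstD5 differed by -1.82 for RasV12cdc42- against RasV12scrib-.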

How the results depend on the processing

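Each result was refitted under 24 other settings, 15 of which left out 1 replicate. No fitted change that passed the threshold turned its sign. The count of members called in RasV12scrib- against wild-type was 8 throughout except for 7 with the random blocks. Array weights, whose estimation stopped before convergence, gave counts of 8 in RafGOFscrib- and 6 in RasV12cdc42- against wild-type, 2 in RafGOFscrib- and 1 in RasV12baz- against RasV12scrib-, 7 in RasV12cdc42- against RasV12baz-, and 8 in the F-test. They also called 36.6% of all features in RafGOFscrib-, 39.2% in RasV12baz- and 51.7% in RasV12cdc42- against wild-type. The share was 22.8% in RasV12cdc42- against RasV12baz-, and 9.32% in RafGOFscrib- and 11.4% in RasV12baz- against RasV12scrib-. Quantile normalization gave 2 in RafGOFscrib- (10.1% of all features) and 2 in RasV12cdc42- (16.6%) against wild-type. Against RasV12scrib- it gave 1 in RasV12baz- (1.45%) and 2 in RasV12cdc42- (2.42%). The arrays with tumour RNA in Cy3 gave 2 (GstD1 and GstD4) in RafGOFscrib- against wild-type, where 9.40% of all features passed. They gave 0 in RasV12cdc42- against RasV12scrib- (1.15% of all features) and 1 in the F-test. Without the dye term 1 member (GstD3) passed in RasV12baz- against RasV12scrib-, as did 5.72% of all features. In RasV12cdc42- against RasV12scrib- the count was 2 with centring (GstD5 and GstD8), 2 without the merged RafGOFscrib- pair and RasV12baz- replicate 4, and 0 with the random blocks. The shares of all features were 4.30%, 4.34% and 0.464% in that order. The random blocks also gave 0 in the F-test. They called 10.1% of all features in RasV12scrib- and 2.40% in RasV12cdc42- against wild-type, where the main fit called 22.1% and 8.14%. With RafGOFscrib- replicates 1 and 2 kept apart, 1 member passed in RafGOFscrib- against RasV12scrib- (3.41% of all features). The cause of these shifts was not tested.

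Leaving out 1 replicate gave counts from 8 to 8 in RasV12scrib-, 0 to 1 in RafGOFscrib-, 4 to 7 in RasV12baz- and 1 to 1 in RasV12cdc42- against wild-type. Against RasV12scrib- they were 0 to 1 in RafGOFscrib-, 0 to 1 in RasV12baz- and 1 to 2 in RasV12cdc42-. They were 0 to 1 in RasV12cdc42- against RasV12baz- and 2 to 4 in the F-test.

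Over all genotypes, same-numbered replicates did not deviate together throughout (r from -0.35 to 0.36, median 0.13, 21 pairs), and in no comparison other than those of RasV12cdc42- and RafGOFscrib- with RasV12scrib- was every pair above 0.1. With the replicate number as a block, the replicate block fit gave 8 members in RasV12scrib-, 0 in RafGOFscrib-, 5 in RasV12baz- and 1 in RasV12cdc42- against wild-type, and 2 in the F-test. Of all features, 22.6%, 3.13%, 3.25% and 7.76% passed in these comparisons with wild-type, in that order. That fit ended the calls of GstD7 and GstD8 in RasV12baz- and of GstD3 in RasV12cdc42- against RafGOFscrib-. It left 1 member (GstD5) in RasV12cdc42- (3.28% of all features) and 0 in RafGOFscrib- (0.491%) against RasV12scrib-. Signal over background was not used, so low probes cannot be told from well measured ones.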
